A study of Homo sapiens with 16 samples.

Results

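The 39 protein-coding HOX genes of the 4 human HOX clusters were followed in 16 RNA-seq libraries from the cell lines U2OS, an osteosarcoma line, and HCT116, a colorectal carcinoma line. They were taken from the gene tables by NCBI gene number, as the genes named HOXA, HOXB, HOXC or HOXD plus a number, without use of any measured value. The 39 genes occupied 36 of 27434 rows, because HOXA9 and HOXA10 shared 1 row with a readthrough gene, and HOXC4, HOXC5 and HOXC6 shared another. The HOXA cluster lies on chromosome 7 with 11 genes in 10 rows, HOXB on chromosome 17 with 10 genes, HOXC on chromosome 12 with 9 genes in 7 rows, and HOXD on chromosome 2 with 9 genes.

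Polyadenylated RNA was measured in 8 groups of 2 libraries each. U2OS cells, of wild-type background, received siRNA against the RNA-binding protein SAM68 (gene KHDRBS1), the non-targeting control siRNA pool, a plasmid carrying HA-tagged mouse SAM68, or the empty control plasmid. HCT116 cells, either SAM68 knockout (KO) or wild type (WT), received siRNA against the long noncoding RNA NORAD or the control siRNA. The siRNAs were used at 50 nM and the plasmids at 100 ng per 20000 cells, both with Lipofectamine and harvest after 48 h. The labels do not state whether the KO cells are 1 clone or whether replicates are separate cultures. The p-values therefore cover only the scatter among these libraries, and that scatter may be technical. The lines were also given different treatments, and line and experiment cannot be told apart.

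HOX genes encode homeodomain transcription factors that give cells their position along the body axis. In vertebrate embryos they are switched on in the order of their place in the cluster, so that low paralog numbers mark anterior and high numbers posterior tissue, and adult cells and cell lines keep much of the HOX pattern of the tissue they came from. Polycomb proteins hold silent HOX genes off, Trithorax proteins keep active ones on, and the HOX proteins bind DNA together with cofactors of the TALE class such as PBX and MEIS.

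Promoters are shown for genes of HOXC and HOXD, the clusters that gave more TPM in every U2OS library than in any HCT116 library. They are the 250 bases before the annotated start, from RefSeq on GRCh38.p14, a later build than that of the expression files, with each CG dinucleotide in capitals, since CG-rich promoters are where Polycomb and Trithorax proteins act. HOXC4 and HOXC5 have the same entry, at chr12:54016638-54016887 (plus strand, 14 CG). The HOXD entries are all on the plus strand: HOXD8 at chr2:176129455-176129704 (28 CG), HOXD10 at chr2:176116528-176116777 (23 CG), HOXD11 at chr2:176107030-176107279 (23 CG) and HOXD12 at chr2:176099545-176099794 (16 CG).
HOXC4 and HOXC5: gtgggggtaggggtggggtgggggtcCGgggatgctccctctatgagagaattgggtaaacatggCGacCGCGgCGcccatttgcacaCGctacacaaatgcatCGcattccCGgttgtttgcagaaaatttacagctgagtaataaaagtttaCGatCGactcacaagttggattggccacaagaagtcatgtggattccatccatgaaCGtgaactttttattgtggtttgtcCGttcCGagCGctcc
HOXD8: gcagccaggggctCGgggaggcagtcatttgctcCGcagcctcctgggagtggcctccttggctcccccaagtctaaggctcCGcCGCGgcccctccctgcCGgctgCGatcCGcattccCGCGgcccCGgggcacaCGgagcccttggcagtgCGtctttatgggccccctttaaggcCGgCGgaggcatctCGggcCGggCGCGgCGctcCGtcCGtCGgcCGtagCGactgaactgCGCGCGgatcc
HOXD10: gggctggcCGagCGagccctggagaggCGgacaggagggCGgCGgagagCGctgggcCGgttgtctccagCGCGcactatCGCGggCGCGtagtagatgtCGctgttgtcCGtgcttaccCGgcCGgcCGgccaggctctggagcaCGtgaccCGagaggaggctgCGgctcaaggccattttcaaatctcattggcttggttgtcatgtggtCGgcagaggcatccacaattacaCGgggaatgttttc
HOXD11: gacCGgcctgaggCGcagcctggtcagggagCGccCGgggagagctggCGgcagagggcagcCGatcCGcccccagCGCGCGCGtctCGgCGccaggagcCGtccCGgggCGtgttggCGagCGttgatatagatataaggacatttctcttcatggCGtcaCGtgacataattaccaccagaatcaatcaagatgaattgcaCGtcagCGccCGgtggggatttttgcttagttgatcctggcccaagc
HOXD12: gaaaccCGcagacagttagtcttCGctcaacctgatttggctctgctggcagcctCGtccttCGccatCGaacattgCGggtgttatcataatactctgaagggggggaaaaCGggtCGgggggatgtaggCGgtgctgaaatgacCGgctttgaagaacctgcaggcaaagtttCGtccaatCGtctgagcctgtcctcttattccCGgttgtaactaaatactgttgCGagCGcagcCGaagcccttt
HOXD8, HOXD10 and HOXD11 were read in U2OS, and HOXD12 was at or near 0 counts in both lines. The CG count did not order the HOXD genes by level: HOXD1, with few reads, had the most (31), HOXD3 and HOXD13 had 21 each, and HOXD4 had 4. Entries existed for 20 of the 39 HOX genes, 27 entries in all, and they held a median of 19 CG (range 0 to 40), against 16 (range 0 to 59) over 22199 entries of 15843 protein-coding genes. The letters TTTATNG, a core preferred by posterior HOX proteins, stood on either strand in 7 of the 27 HOX entries (25.9%), among them HOXD8 and the HOXC4 and HOXC5 entry, and in 7.46% of all entries. The letters TGATNNAT, the composite PBX and HOX core, stood in 3 of 27 (11.1%), among them HOXD11, and in 4.55% of all entries. TATAAA stood in 5 of 27 (18.5%), none of those printed, and in 9.0% of all entries. The searches ran over both strands, and a match can overlap a match of another motif. The shared entry of HOXC4 and HOXC5 was counted once for each gene, and HOXA3 alone gave 7 of the 27 entries. The HOX entries are therefore not independent of each other.

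Libraries held 11349545 to 27387412 counts, and 3 counts, taken as the floor of detection, corresponded to 0.11 to 0.264 CPM. KHDRBS1 was at 75.4 and 48.2 CPM (counts scaled to the TMM-adjusted library size) with SAM68 siRNA, against 229 and 232 with control siRNA. The SAM68 plasmid libraries had 523 and 590 CPM of KHDRBS1, against 220 and 273 CPM in the control plasmid libraries, where how many reads of the mouse gene were counted on the human row was not tested. In HCT116 it was at 32.5 to 45.6 CPM in KO libraries, against 215 to 250 in WT libraries. NORAD was at 78.7 and 56.0 CPM with NORAD siRNA against 231 and 259 with control siRNA in KO cells, and at 52.3 and 48.8 against 258 and 241 in WT cells. Markers of the labelled cell types were divided as follows, beside 43.8% of all genes higher in U2OS and 37.4% lower in the test described below. Of the epithelial and colon list, 11 of 12 tested genes were lower in U2OS and 1 (GPA33, a colon antigen) higher, with summed levels of 642 to 1260 CPM in U2OS against 4107 to 5584 in HCT116. The villus protein gene VIL1 and the osteoblast factor gene SP7, defining markers of colon and of bone, were at or near 0 in both lines. The mesenchymal and bone list had 13 of 14 tested genes higher in U2OS and 1 (TWIST1, a mesenchymal factor) lower, with 5907 to 10567 CPM in U2OS against 27.8 to 41.3 in HCT116. GPA33 and TWIST1 are named because they were the exceptions, after their values were seen. Of the epithelial and colon list, 6 genes passed the filter on low counts in the U2OS fit and 11 in the HCT116 fit. Of the mesenchymal and bone list, 13 passed in U2OS and 5 in HCT116. A difference in many of them therefore follows in part from how they passed, and no support is read from these counts. Blood, endothelial and liver markers summed to 0.142 to 1.37 CPM in U2OS and 0.0374 to 0.881 CPM in HCT116.

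U2OS and HCT116 devoted about the same RNA to HOX genes, but to different clusters. The deposited TPM of the HOX rows, a scale per transcript length, summed to 269 ± 14.6 in U2OS (247 to 289) and to 268 ± 21.5 in HCT116 (228 to 300; SD, n = 8 each), with overlapping ranges. HOXC rows summed to 88.4 ± 6.15 TPM in U2OS and 17.7 ± 1.88 TPM in HCT116, and HOXD rows to 18.3 ± 4.7 TPM in U2OS and 4.41 ± 0.807 TPM in HCT116. HOXA rows summed to 58.1 ± 4.43 TPM in U2OS and 101 ± 11.0 TPM in HCT116, and HOXB rows to 104 ± 6.19 TPM in U2OS and 145 ± 14.7 TPM in HCT116. In none of the 4 clusters did the libraries of the lines overlap. HOXC thus made up 32.9% of the HOX TPM in U2OS and 6.61% in HCT116, while HOXA and HOXB together held the larger part in both.

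**Figure D1:**
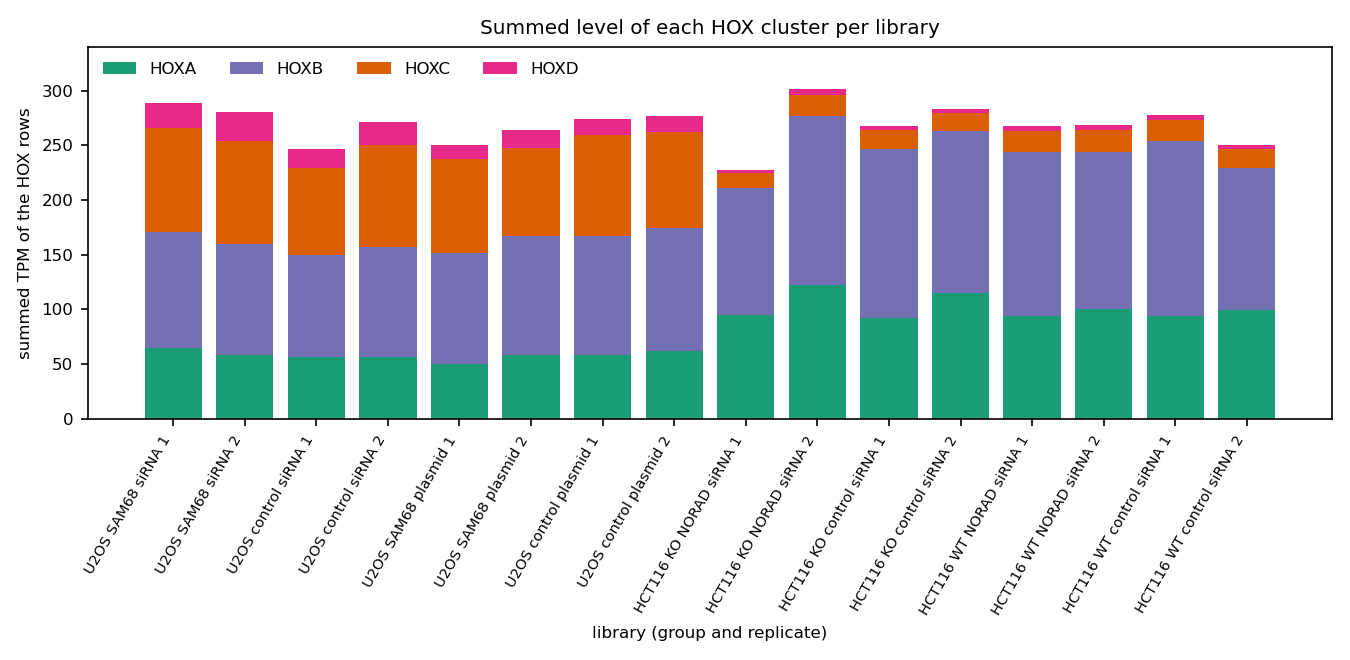
Summed TPM of the HOX rows in each of the 16 libraries, stacked by cluster; each bar is 1 library, U2OS on the left and HCT116 on the right. The total is alike (269 TPM on average in U2OS, 268 in HCT116), the HOXC part is larger in every U2OS library, and the HOXA and HOXB parts are larger in every HCT116 library.

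In the fit of all 16 libraries by edgeR's quasi-likelihood test, 26 of 29 tested HOX rows differed between the lines at a Benjamini-Hochberg adjusted p below 0.05. Of all 16444 genes tested, 81.2% did so, and the count of HOX rows is close to that background. Rows called higher in U2OS were 15 of 29 (43.8% of all genes) and rows called lower were 11 of 29 (37.4%). At 4-fold or more, 12 of 29 HOX rows were called (25.3% of all genes), 7 higher (17.9%) and 5 lower (7.41%). A log2 fold change above 0 was seen in 17 of 29 HOX rows (53.5% of all genes). Libraries of the lines did not overlap for 13 tested rows higher in U2OS (29.5% of genes) and 8 lower (21.8%). The median log2 fold change, U2OS over HCT116, was 0.395 over the tested HOX rows and 0.1 over all genes. Of the 29 tested rows, 5 passed the filter on low counts only through U2OS (HOXA2, HOXC11, HOXD9, HOXD10, HOXD11) and 2 only through HCT116 (HOXA6, HOXB4), so a difference in them follows in part from how they passed, and no support is read from the counts or the median; 7 further rows were too low to test. The fold changes were divided by cluster: all 6 tested HOXC rows and all 4 tested HOXD rows were higher in U2OS (3 of these 4 passed the filter only through U2OS), whereas HOXA had 2 higher and 7 lower of 10, and HOXB 3 higher and 4 lower of 9.

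**Figure D2:**
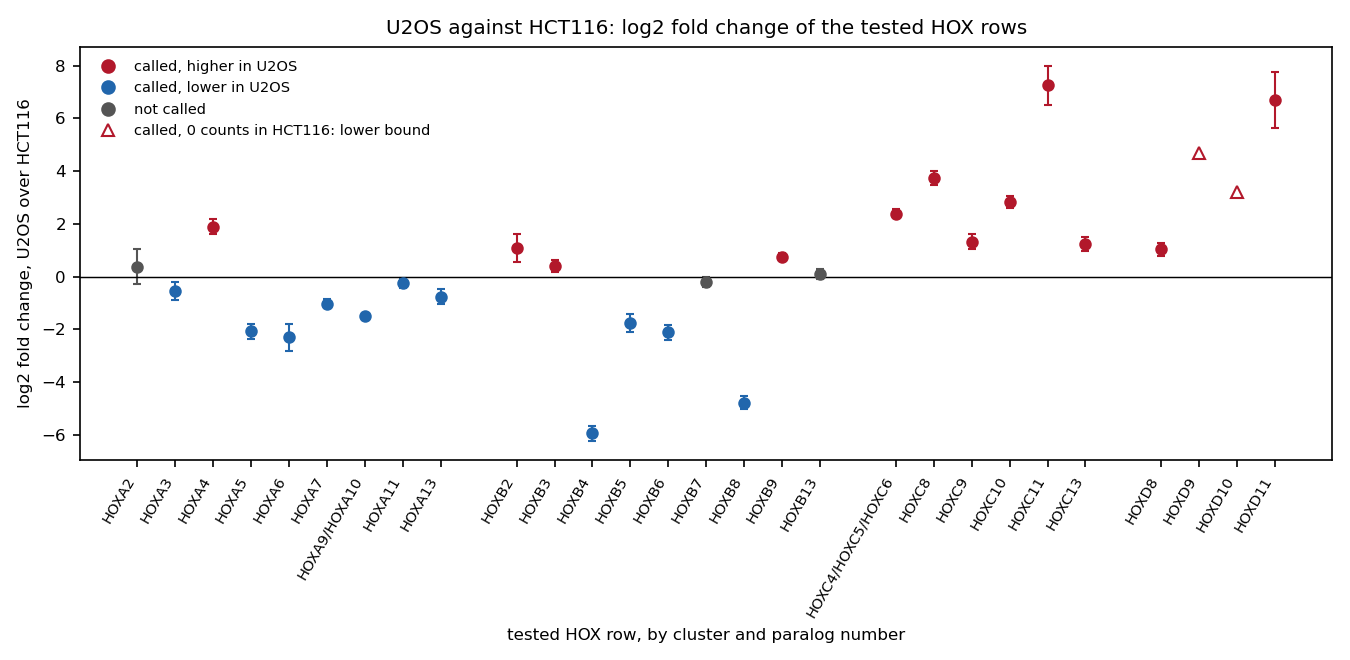
Log2 fold change of the tested HOX rows described here, U2OS over HCT116, by cluster and paralog number; bars are 2 standard errors either way, and open triangles are lower bounds for HOXD9 and HOXD10, which had 0 counts in HCT116. Every HOXC and HOXD point lies above 0 (HOXD3 and HOXD4, below the filter, are not drawn), most HOXA points lie below it, and HOXB4 and HOXB8 are lowest at -5.95 and -4.78.

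HOXC was the cluster with the most rows higher in U2OS. HOXC8, a central gene that patterns thoracic levels in mouse, ranged from 8.15 to 17.1 CPM in U2OS (median 14.9), against 0.582 to 1.36 CPM in HCT116 (median 0.953). Every U2OS library was above every HCT116 library, and the log2 fold change was 3.75 ± 0.13 (SE; adjusted p = 1.98e-12). The joined row of HOXC4, HOXC5 and HOXC6 ranged from 23.1 to 32.0 CPM in U2OS (median 26.3) and from 4.07 to 5.92 CPM in HCT116 (median 5.56), a log2 fold change of 2.39 ± 0.09 (adjusted p = 7.95e-12). The files give these 3 genes 1 row, so which of them the reads belong to cannot be told apart. The row's deposited effective length was 1702 bases in the median U2OS library and 1585 in the median HCT116 library.

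Among the posterior HOXC genes, HOXC10, which acts in hindlimb and lumbar patterning in mouse, ranged from 10.8 to 19.7 CPM in U2OS (median 15.8), against 1.64 to 2.46 CPM in HCT116 (median 2.18), and was 7.09-fold higher. HOXC9 (9.21 to 18.0 CPM in U2OS, 3.69 to 5.76 in HCT116) and HOXC13, a gene of hair and nail formation (11.0 to 17.5 CPM in U2OS, 4.8 to 7.13 in HCT116), were 2.49-fold and 2.37-fold higher. None of these overlapped between the lines.
HOXC11 ranged from 4.51 to 8.28 CPM in U2OS (median 5.8), but had 9 counts in all 8 HCT116 libraries together, with 0 to 0.212 CPM. Its fitted log2 fold change of 7.26 ± 0.37 (adjusted p = 3.77e-10) rests on these few reads. HOXC12 had 0 counts in all 16 libraries.

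HOXD differed most among its posterior genes. HOXD9 and HOXD10, neighbours that act in hindlimb patterning in mouse, had 0 counts in all 8 HCT116 libraries. HOXD9 ranged from 2.92 to 5.4 CPM in U2OS (median 3.97), which is at least 25.5-fold above the HCT116 floor of 3 counts per library, and HOXD10 from 0.511 to 2.48 CPM (median 1.32), at least 9.36-fold above it (adjusted p = 1.89e-09 and 5.75e-08). HOXD11, which shapes the forearm in mouse, had 273 counts in U2OS and 3 in HCT116, a ratio of 92.6 after scaling (exact 95% interval 31.4 to 452, counting error only). Toward the end of the cluster the reads ran out: HOXD12 had 4 counts in U2OS and 1 in HCT116 (ratio 4.07, interval 0.403 to 201), and HOXD13, the digit gene, 8 and 1 (ratio 8.14, interval 1.09 to 361). Summed over paralog numbers 9 to 13, HOXD gave 8.65 ± 3.22 TPM in U2OS and 0.0462 ± 0.0607 TPM in HCT116 (SD, n = 8 each).
HOXD8 was the 1 HOXD gene read well in both lines, with 6.54 to 10.2 CPM in U2OS (median 8.11) and 3.27 to 5.2 CPM in HCT116 (median 3.89); it was 2.04-fold higher in U2OS without overlap (adjusted p = 1.45e-06). The anterior HOXD genes were hardly read. HOXD1, on a row joined with a microRNA gene, had 0.136 to 0.426 CPM in U2OS and 0 in HCT116, at least 1.73-fold above the floor. HOXD3 had 3 counts in U2OS and 27 in HCT116, and HOXD4 had 22 in U2OS and 56 in HCT116. Both were below the filter of the 16-library fit, and both went the other way from the tested HOXD rows. Without the filter, edgeR called both lower in U2OS (HOXD3 at -3.34, adjusted p = 0.00334, and HOXD4 at -1.25, adjusted p = 0.0304). With 1 library left out, HOXD4 passed the filter in 15 of 16 fits and was called lower in 10 of them (log2 fold changes -2.09 to -0.67, adjusted p = 0.00642 to 0.281). The same edgeR fit without the filter called HOXD1 higher (5.43, adjusted p = 1.73e-06, on 0 counts in HCT116). In it HOXD8, HOXD9, HOXD10 and HOXD11 stayed called higher. Whether all tested HOXD rows share a direction therefore depends on the filter.

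HOXB carried the largest differences toward HCT116. HOXB4, a gene known for expanding blood stem cells, ranged from 0.272 to 0.395 CPM in U2OS (median 0.295), against 17.0 to 23.1 CPM in HCT116 (median 19.2). It was 61.8-fold lower in U2OS, at a log2 fold change of -5.95 ± 0.14 (adjusted p = 2.73e-14). HOXB8, which holds myeloid progenitors in an immature state when overexpressed in mouse, ranged from 0.804 to 1.22 CPM in U2OS (median 1.04), against 21.1 to 32.4 CPM in HCT116 (median 28.7), and was 27.5-fold lower (adjusted p = 1.54e-13).
The genes beside these were less divided. HOXB3, next to HOXB4, ranged from 11.7 to 17.0 CPM in U2OS and from 9.1 to 12.2 CPM in HCT116, a log2 fold change of 0.4 ± 0.11 (adjusted p = 0.00332) with overlapping libraries. HOXB7 and HOXB9, on either side of HOXB8, were the highest and second highest HOX rows of U2OS by TPM (42.3 ± 3.32 and 35.8 ± 4.72). In HCT116 HOXB7 was second (43.1 ± 4.09 TPM) and HOXB9 was 5th (18.4 ± 2.16 TPM).
HOXB9 was 1.69-fold higher in U2OS (35.8 to 63.2 CPM, against 23.1 to 31.7 in HCT116; adjusted p = 1.78e-07), and HOXB7 did not pass the test (log2 fold change -0.21 ± 0.09, adjusted p = 0.0519). HOXB5 and HOXB6, thoracic-level genes in mouse, were 3.38-fold and 4.32-fold lower in U2OS, without overlap (1.59 to 4.53 CPM in U2OS against 6.8 to 10.8 in HCT116, and 2.43 to 6.5 against 14.1 to 21.2). HOXB2 was 2.11-fold higher at low levels (0.64 to 1.4 CPM in U2OS, 0.26 to 0.819 in HCT116). HOXB13, the most posterior gene of its cluster and a prostate and distal colon gene, was not called, with medians of 12.3 CPM in both lines and a log2 fold change of 0.09 ± 0.1 (adjusted p = 0.406). HOXB1, a hindbrain gene, had 0 counts throughout.

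In HOXA, most called rows were lower in U2OS, and HOXA4 was an exception. HOXA4 was 3.73-fold higher, with 3.62 to 7.09 CPM in U2OS and 0.91 to 1.76 CPM in HCT116 (adjusted p = 8.21e-09). Its libraries did not overlap between the lines.
The joined row of HOXA9 and HOXA10, genes of blood cells, uterus and posterior patterning, was the highest HOX row of HCT116 (64.4 ± 9.56 TPM) and the fourth of U2OS (25.0 ± 2.91 TPM). It ranged from 22.1 to 33.4 CPM in U2OS (median 29.5) and from 68.4 to 91.3 CPM in HCT116 (median 75.7), 2.84-fold lower in U2OS (adjusted p = 6.17e-11). HOXA5, a lung patterning gene in mouse, was 4.23-fold lower (0.568 to 1.26 CPM in U2OS, 3.27 to 4.86 in HCT116). HOXA6 was 4.97-fold lower (0.079 to 0.426 CPM against 0.65 to 2.17), and HOXA7 was 2.04-fold lower (6.16 to 8.71 CPM against 11.6 to 18.4). All 4 of these rows were separated between the lines.
HOXA3, HOXA11 and HOXA13 were lower in U2OS by small amounts with overlapping libraries, at log2 fold changes of -0.53 ± 0.17 (adjusted p = 0.00981), -0.25 ± 0.09 (0.0205) and -0.76 ± 0.14 (0.000148). HOXA2 was not called, at 0.219 to 0.869 CPM in U2OS and 0.113 to 0.505 CPM in HCT116 (log2 fold change 0.38 ± 0.33, adjusted p = 0.304). In the contrast of the control siRNA groups only, 2 libraries a line, the calls of HOXA3, HOXA13, HOXB2, HOXB3 and HOXB9 ended (adjusted p = 0.122, 0.111, 0.29, 0.173 and 0.105), and HOXB7 was called lower in U2OS (-0.52, adjusted p = 0.0269). The HOXA11 call ended when the first WT NORAD siRNA library was left out (-0.22, adjusted p = 0.059). HOXB7 was called without the second SAM68 siRNA library (adjusted p = 0.0369), the first SAM68 plasmid library (0.0267), the second WT control siRNA library (0.0139) or the second WT NORAD siRNA library (0.0456).

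**Figure D3:**
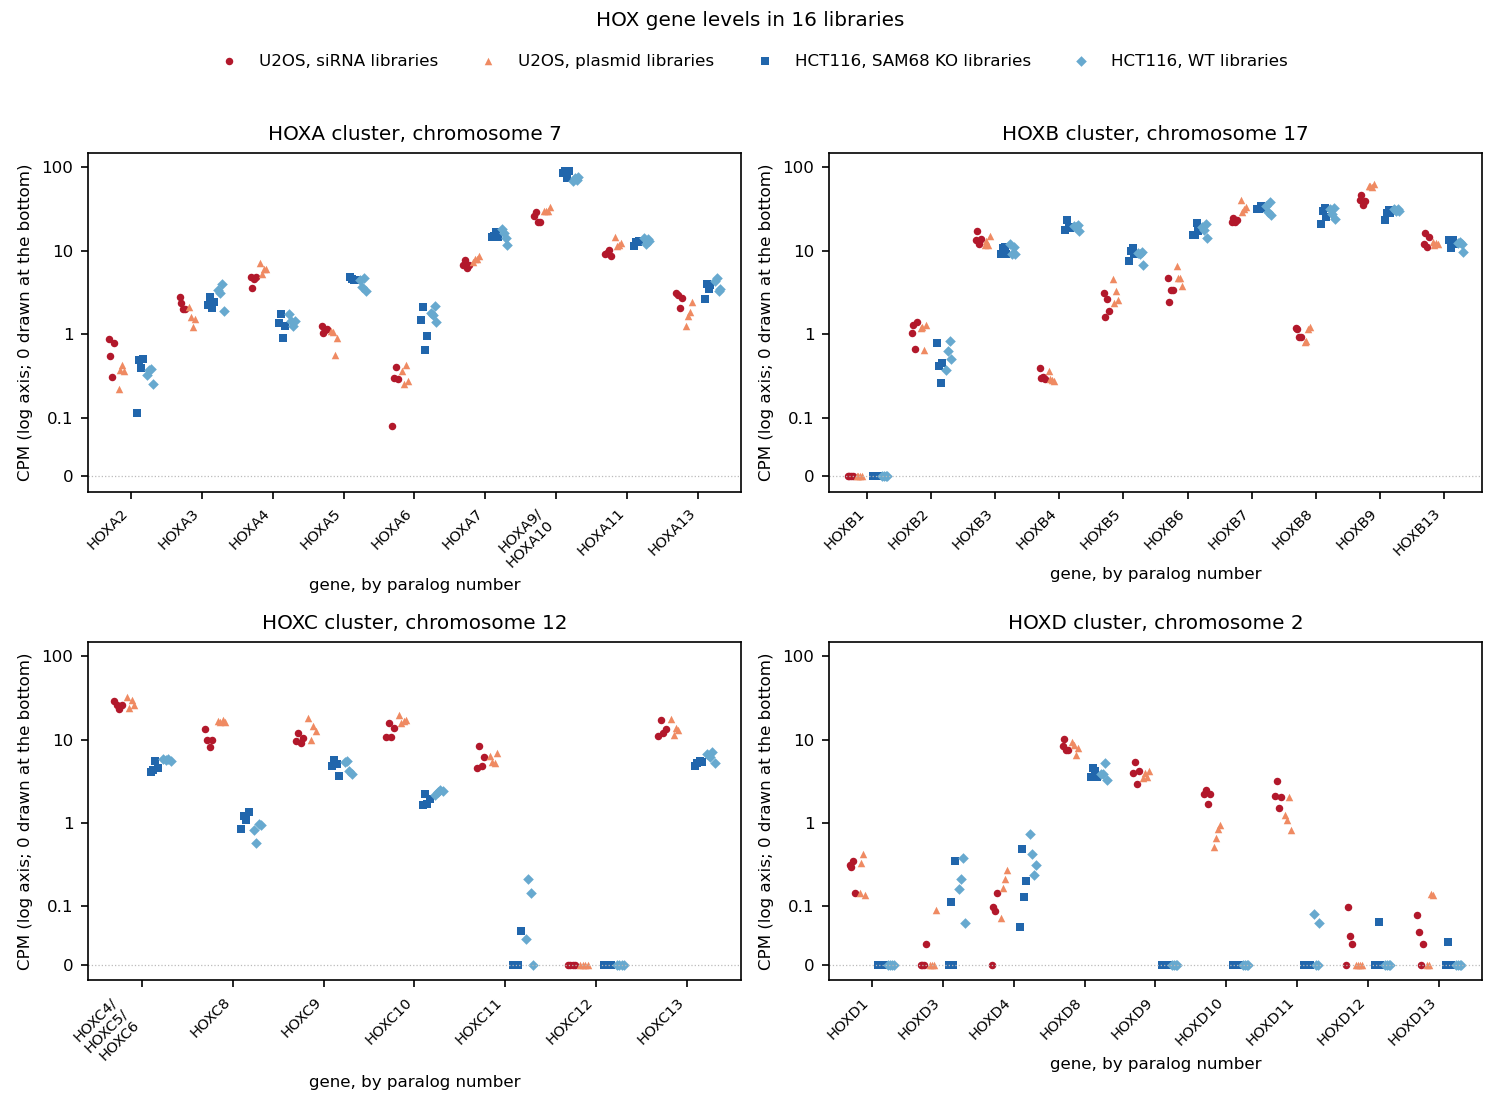
CPM of the HOX rows described here, on log axes (0 at the bottom), 1 panel per cluster; each point is 1 library, U2OS siRNA and plasmid libraries left of HCT116 KO and WT libraries. HOXB4 and HOXB8 are far lower in all U2OS libraries than in HCT116, HOXD9 and HOXD10 are at 0 in all HCT116 libraries, and the siRNA points of HOXD10 lie above its plasmid points.

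Posterior genes of HOXA, HOXB and HOXC were read in both lines, in different proportions by cluster. Those of HOXD were hardly read in HCT116 (0.0462 ± 0.0607 TPM, against 8.65 ± 3.22 TPM in U2OS). Rows numbered 9 to 13 summed in HOXC to 48.0 ± 4.77 TPM in U2OS and 11.8 ± 1.39 TPM in HCT116, and in HOXB to 44.0 ± 4.31 TPM in U2OS and 25.1 ± 2.16 TPM in HCT116. In HOXA they summed to 34.7 ± 3.3 TPM in U2OS and 75.2 ± 9.82 TPM in HCT116. For the central rows 5 to 8, HOXB gave 51.4 ± 4.01 TPM in U2OS and 97.6 ± 11.0 TPM in HCT116. HOXA gave 9.45 ± 0.971 TPM in U2OS and 21.6 ± 2.35 TPM in HCT116. HOXC8 (11.4 ± 2.38 TPM in U2OS, 0.739 ± 0.206 in HCT116) and HOXD8 (9.14 ± 1.7 and 3.78 ± 0.601) went the other way. The joined HOXC row was left out of these sums.

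Noncoding RNA genes that lie inside the clusters were also divided between the lines, with 8 of 9 tested genes higher in U2OS and 1 lower, beside 81.2% of all genes called and 43.8% called higher. Of the 16 in the files, 7 were too low to test; 5 of the 9 passed the filter only through U2OS and 1 (HOXA10-AS) only through HCT116, so no support is read from this count. The counting setting for strand is not given in the sources used here, so reads of these genes and of the HOX genes they overlap cannot be told apart, among them HOXA10-AS with the HOXA9 and HOXA10 row, HAGLR with HOXD1, and HOTAIR with HOXC11. HOXA10-AS had 0 counts in all U2OS libraries and 8.62 to 11.9 CPM in HCT116 (median 10.7), at least 63.5-fold lower in U2OS (adjusted p = 7.48e-11). HAGLR, of the HOXD cluster, was the reverse, with 3.94 to 6.79 CPM in U2OS and 0 counts in HCT116, at least 33.5-fold higher (adjusted p = 3.53e-10).
HOTAIR, a HOXC transcript reported to bind Polycomb proteins, ranged from 1.59 to 4.36 CPM in U2OS (median 3.27) and from 0 to 0.285 CPM in HCT116 (median 0.158), a log2 fold change of 4.31 ± 0.27 (adjusted p = 1.11e-09). HOTAIRM1, a transcript of the HOXA cluster, was 3.22-fold higher in U2OS, with 3.54 to 5.71 CPM in U2OS and 1.02 to 1.7 CPM in HCT116. HOTTIP, of the HOXA end, was at 0 to 0.227 CPM in U2OS and 0 to 0.378 CPM in HCT116 and was not tested.

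Of the TALE cofactors, 5 of 8 tested genes were higher in U2OS and 2 lower. That is 87.5% called, near the 81.2% of all genes (43.8% higher and 37.4% lower). MEIS1 ranged from 5.63 to 15.1 CPM in U2OS (median 9.46) and from 0 to 0.0816 CPM in HCT116, where it had 4 counts in all (log2 fold change 8.63 ± 0.29, adjusted p = 4.18e-12). MEIS1 passed the filter on low counts only through U2OS, so its difference follows in part from how it passed. PBX3 was 2.15-fold higher, PKNOX1 and PBX4 were 1.17-fold and 2.68-fold lower, and MEIS2 was not called (0.22 ± 0.13, adjusted p = 0.127).
In the ParaHox and EVX list, 2 of 8 genes could be tested and both were lower in U2OS, as were 37.4% of all genes. CDX2, an intestinal factor that acts upstream of HOX genes in mouse embryos, ranged from 1.56 to 3.27 CPM in U2OS (median 2.37) and from 9.83 to 13.9 CPM in HCT116 (median 12.0), 5.12-fold lower in U2OS (adjusted p = 1.23e-09). PDX1, of pancreas and duodenum, was 8.14-fold lower, and CDX1 had 1 count in U2OS and 0 in HCT116. PDX1 passed the filter on low counts only through HCT116, so its difference follows in part from that.

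**Figure D4:**
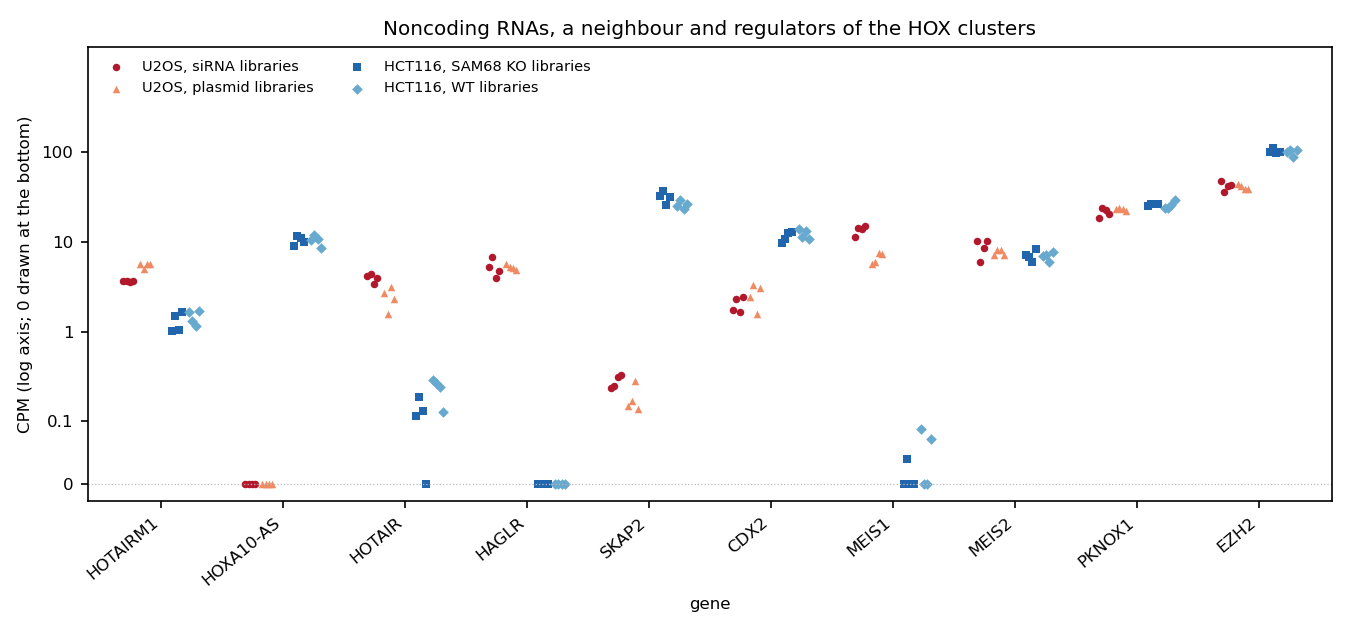
CPM on a log axis (0 at the bottom) of noncoding RNAs of the clusters, the HOXA neighbour SKAP2, CDX2, 3 TALE cofactors and EZH2; each point is 1 library, U2OS siRNA and plasmid libraries left of HCT116 KO and WT libraries. HAGLR is at 0 in HCT116 and HOXA10-AS at 0 in U2OS, and MEIS1 is higher in U2OS siRNA libraries than in U2OS plasmid libraries.

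The regulators of HOX chromatin were called about as often as all genes (81.2%) and in both directions. Of 33 tested Polycomb genes 13 were higher and 14 lower in U2OS, and of 20 Trithorax and coactivator genes 7 were higher and 8 lower, which is 81.8% and 75% called. EZH2, the Polycomb methyltransferase, ranged from 36.3 to 47.4 CPM in U2OS (median 42.3) and from 89.3 to 113 CPM in HCT116 (median 101), 2.45-fold lower in U2OS (adjusted p = 5.7e-10). PHC1 and ASXL1 were 4.87-fold and 2.7-fold higher, and PCGF3 was 2.65-fold lower.
The list of the retinoic acid pathway, whose signal turns on anterior HOX genes in embryos, had 5 of 12 tested genes higher and 5 lower (83.3% called). ALDH1A3, an enzyme that makes retinoic acid, was at 0 to 0.443 CPM in U2OS and 449 to 811 CPM in HCT116. DHRS3, which turns retinaldehyde back to retinol, was 16.6-fold lower in U2OS, and the retinol transporter STRA6 was higher, at 2.06 to 11.3 CPM in U2OS and 0 to 0.252 CPM in HCT116. Of the 12 tested genes, 10 passed the filter on low counts in each line alone. The differences in ALDH1A3 and STRA6 follow in part from how they passed.
Of 13 tested genes that border the clusters, 2 were higher in U2OS and 6 lower (61.5% called, against 81.2% of all genes). SKAP2, which borders HOXA, was at 0.136 to 0.324 CPM in U2OS and 23.6 to 37.3 CPM in HCT116 (127-fold lower, adjusted p = 9.86e-15), and SKAP1, next to HOXB1, was 5.93-fold lower. SKAP2 passed the filter on low counts only through HCT116, so its difference follows in part from that.

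Within U2OS, no HOX row passed the test after SAM68 siRNA or the SAM68 plasmid. With SAM68 siRNA against control siRNA, edgeR called 0 of 27 tested HOX rows, and 0.00639% of 15658 genes; at an unadjusted p below 0.05 it found 0 HOX rows and 166 genes (1.06%), and DESeq2 called 0 HOX rows and 7 genes. KHDRBS1 itself, at a log2 fold change of -1.94 ± 0.25, had an adjusted p of 0.185, so a change of that size did not pass in this comparison. Most HOX rows were slightly higher: 23 of 27 had a log2 fold change above 0 (48.6% of all genes), with a median of 0.139 against -0.007 for all genes. Libraries of the groups did not overlap for 10 of 27 rows, all higher with SAM68 siRNA (12.1% of all genes were so, and 7.34% were lower without overlap). The median was 0.323 without the second control siRNA library, 0.286 without the first SAM68 siRNA library and 0.082 without the first control siRNA library. The smallest p was that of the HOXA9 and HOXA10 row, with 26.4 and 29.4 CPM after SAM68 siRNA, against 22.1 and 22.2 CPM after control siRNA (log2 fold change 0.29 ± 0.18, adjusted p = 1).
With the SAM68 plasmid against the control plasmid, 0 of 27 rows were called (0.00639% of genes; 0 HOX rows and 86 genes, 0.549%, at an unadjusted p below 0.05; DESeq2 called 0 HOX rows and 4 genes), and 14 rows lay above 0 (52.5% of all genes) and 13 below. HOXA13, a posterior gene of gut and limb, had the smallest p, with 1.24 and 1.63 CPM under the SAM68 plasmid, against 1.85 and 2.45 CPM under the control plasmid (-0.57 ± 0.34, adjusted p = 1). The human KHDRBS1 row had a log2 fold change of 1.18 ± 0.24 here and did not pass either (adjusted p = 1). The plasmid carries the mouse gene, and how many of its reads were counted on this row was not tested.

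By genes called, the 4 siRNA libraries of U2OS differed more from the 4 plasmid libraries than SAM68 siRNA or plasmid libraries did from their controls. The SAM68 comparisons had only 2 libraries a group, and each called 1 gene and 0 HOX rows. At that size, between the control groups only, siRNA against plasmid called 204 genes and 0 HOX rows. The comparison of all siRNA with all plasmid libraries was added after the values were seen. Transfection type, experiment and SAM68 level cannot be told apart in it. Its siRNA side held the SAM68 siRNA libraries and its plasmid side the SAM68 plasmid libraries. By edgeR, KHDRBS1 itself was lower on the siRNA side (log2 fold change -1.57 ± 0.17, adjusted p = 0.00191). The comparison called 4 of 27 HOX rows, against 24.8% of all genes: 1 higher in siRNA libraries (14.7% of genes) and 3 lower (10.1%).
HOXD10 was at 2.21 and 2.48 CPM with SAM68 siRNA and 1.68 and 2.26 CPM with control siRNA, against 0.511 and 0.671 CPM with the SAM68 plasmid and 0.853 and 0.952 CPM with the control plasmid. All siRNA libraries were above all plasmid libraries, at a log2 fold change of 1.6 ± 0.26 (adjusted p = 0.00586). HOXB9 (35.8 to 46.0 CPM with siRNA, 58.8 to 63.2 CPM with plasmid; -0.53 ± 0.12, adjusted p = 0.0172), HOXC8 (8.15 to 13.4 CPM against 16.3 to 17.1 CPM; -0.64 ± 0.16, adjusted p = 0.0241) and HOXB7 (22.2 to 25.0 CPM against 29.2 to 40.3 CPM; -0.47 ± 0.15, adjusted p = 0.045) were lower, also without overlap. In all, 1 HOX row was higher without overlap (15.6% of genes) and 7 were lower (18% of genes). None of the 4 was called between the control groups only (adjusted p = 0.103, 0.0958, 0.0982 and 0.251), and the HOXB7 call also ended with the replicate number as a block (-0.47, adjusted p = 0.0515).
HOXD10 was the 1 HOX row called higher whichever of the 8 libraries was left out, apart from HOXD11, called when the first control plasmid library was left out; the rows called lower numbered 0 to 5, and were 0 without either control siRNA library or either control plasmid library. MEIS1 (1.13 ± 0.14, adjusted p = 0.00311) and HOTAIR (0.8 ± 0.23, adjusted p = 0.0345) were higher in siRNA libraries, and HOTAIRM1 was lower (-0.53 ± 0.16, adjusted p = 0.0433). Mesenchymal markers moved too, COL3A1 by 3.78 ± 0.57 (adjusted p = 0.00466) and RUNX2 by 1.36 ± 0.19 (adjusted p = 0.00406), higher in siRNA libraries, and ALPL, a bone enzyme of the same list, lower (-1.19 ± 0.28, adjusted p = 0.0177). Of 13 tested genes of that list 9 were higher and 1 lower, beside 14.7% and 10.1% of all genes. Their part in the HOX differences was not tested.

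**Figure D5:**
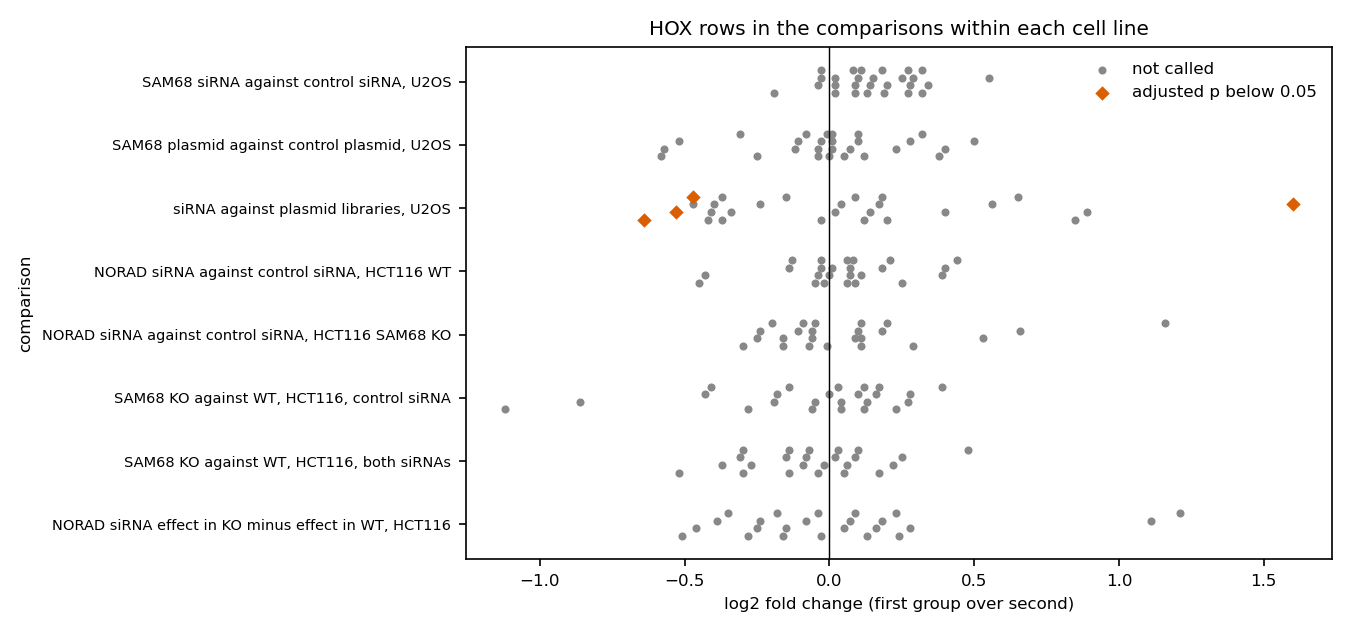
Log2 fold changes of the tested HOX rows (27 in U2OS, 24 in HCT116) in the 8 comparisons within a line; each point is 1 row, and orange diamonds have an adjusted p below 0.05. The 4 diamonds (HOXD10 at 1.6, and HOXB7, HOXB9 and HOXC8 below 0) all belong to siRNA against plasmid libraries of U2OS.

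Within HCT116, no HOX row was called in any comparison. After NORAD siRNA, 0 of 24 tested rows were called in KO cells and 0 of 24 in WT cells, each against 0.00727% of 13764 genes; 1 HOX row each had an unadjusted p below 0.05 (1558 genes, 11.3%, in KO cells and 181, 1.32%, in WT cells), and DESeq2 called 0 HOX rows in either, with 8 genes in KO cells and 5 in WT cells. NORAD itself was called in both, at -1.85 in KO cells (adjusted p = 0.00609) and -2.3 in WT cells (adjusted p = 0.00099). In KO cells the HOX row was HOXA6, at 1.47 and 2.13 CPM with NORAD siRNA, against 0.65 and 0.96 CPM with control siRNA (1.16 ± 0.38, adjusted p = 0.428). In WT cells it was HOXA7, at 18.4 and 16.1 CPM with NORAD siRNA, against 14.4 and 11.6 CPM with control siRNA (0.4 ± 0.15, adjusted p = 0.999). The difference of the NORAD effects, KO minus WT, was called for 0 of 24 HOX rows and 0% of genes (1 HOX row and 1048 genes, 7.61%, at an unadjusted p below 0.05; DESeq2 called 0 HOX rows and 2 genes), and HOXA6 had the smallest p (1.21 ± 0.51, adjusted p = 0.642).
KO against WT under control siRNA gave 0 of 24 called rows (0.312% of genes; 1 HOX row and 1269 genes, 9.22%, at an unadjusted p below 0.05; DESeq2 called 0 HOX rows and 112 genes). HOXA6 again had the smallest p, at 0.65 and 0.96 CPM in KO cells, against 2.17 and 1.38 CPM in WT cells (-1.12 ± 0.38, adjusted p = 0.386); this comparison and the NORAD siRNA comparison in KO cells share the KO control libraries.
Over both siRNAs, 0 of 24 rows differed between KO and WT cells, while 17.6% of genes did (2 HOX rows and 4969 genes, 36.1%, at an unadjusted p below 0.05; DESeq2 called 0 HOX rows and 2651 genes). The HOXA9 and HOXA10 row came closest, at 85.1, 91.3, 74.8 and 89.7 CPM in KO libraries, against 68.4, 73.8, 70.9 and 76.7 CPM in WT libraries, with 1 overlap (0.25 ± 0.08, adjusted p = 0.0659). It was called without the first KO control library (adjusted p = 0.0375) and with the replicate number as a block (adjusted p = 0.00669). Among the cofactors MEIS3 was lower in KO cells (-0.57 ± 0.11, adjusted p = 0.0153).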

How the data were processed

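Poly(A) RNA was sequenced from 16 libraries with a stranded kit, per the labels' protocols; the strand setting used in counting is not given in the sources used here. Per the submitters' processing notes, the tools were STAR and RSEM, with no versions, and the genome was hg19. The authors deposited, per gene row, expected counts (estimated counts from RSEM, not whole), TPM, and an effective length; FPKM was not used here. Expected counts were rounded to whole numbers, and rows were matched by NCBI gene number, with rows joining several genes kept whole. Replicates of a group differed by more than counting noise (chi-square per gene 7.83 to 60.1), so none was counted as a repeat deposit.

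Counts were filtered by expression within groups, scaled by TMM and tested with edgeR 4.0.16 (quasi-likelihood, R 4.3.3, limma 3.58.1) in 3 fits: all 16 libraries for the lines (16444 genes), the U2OS libraries (15658) and the HCT116 libraries (13764). P-values were adjusted by Benjamini-Hochberg over all genes of a fit, with a threshold of 0.05, and standard errors were derived from the fold change and its F statistic. CPM is the rounded count over the TMM-scaled library size, and TPM was used to compare levels between genes. Lower bounds set the mean of 1 line against 3 counts per library in the other; intervals (95%) and floors cover counting error only. The tests were also run on simulated data, with a spread set below that of the 16-library and U2OS fits. No support is read from that run. DESeq2 1.42.0, other size factors, no filter, a replicate block and leaving out each library were alternatives.

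Named were the HOX rows between the lines, apart from 1 that is not reported here, and within a line those called or with the smallest p; from other lists, up to 3 called genes a direction with the smallest p and a short list of known regulators; any other gene was named after its values were seen. The members and lists were chosen with earlier results of these data known. Promoters came from RefSeq (GRCh38.p14), used for sequence only.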

Additional observations from a re-analysis of the deposited data

Results flagged for a closer look

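HOXB9 in the first HCT116 KO NORAD siRNA library was at 23.1 CPM, below the other 7 HCT116 libraries, which lay between 28.3 and 31.7 CPM. The gap to the nearest library was large against the range of the 8 HCT116 libraries, and such a gap arises by chance in about 5% of groups. Every tested HOX row above the floor was screened this way in both lines, so some such gaps arise by chance. No other library was flagged.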

How the results depend on the processing

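Between the lines, no HOX row tested in the 16-library fit reversed under any alternative run. In every fit that left out 1 library, 15 rows were called higher, and 10 to 13 were called lower, with 13265 to 13816 genes called. Without the filter, which also admits HOXD1, HOXD3 and HOXD4, 16 rows were called higher and 13 lower. HOXB7 was called with the replicate block (-0.21, adjusted p = 0.0474) and with a length offset (-0.23, adjusted p = 0.0342).

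Counts of called genes within lines were less stable, and the cause was not tested. Without the filter on low counts they were 27 for SAM68 siRNA, 15 for the SAM68 plasmid, 61 and 33 for NORAD siRNA in KO and WT cells, 272 for KO against WT under control siRNA, 3772 over both siRNAs and 30 for the difference of the NORAD effects. DESeq2 called 7, 4, 8, 5, 112, 2651 and 2 in the same order. Leaving out 1 library gave 0 to 5, 0 to 4, 0 to 4, 1 to 2, 20 to 41, 201 to 3144 and 0 to 1. KO against WT called 43 under control siRNA only and 2495 under NORAD siRNA only. For siRNA against plasmid libraries of U2OS, the control groups only gave 204 genes and 0 HOX rows either way; leaving out 1 library gave 783 to 5420 genes, 1 to 2 HOX rows higher and 0 to 5 lower, and no filter gave 2 higher.

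With the replicate number as a block, the counts were 0 for SAM68 siRNA, 0 for the SAM68 plasmid, 7 and 3 for NORAD siRNA in KO and WT cells, 254 and 5247 for KO against WT, and 2 for the difference. The difference of replicate 2 minus replicate 1 (log2 of CPM plus 1, over the tested genes) was correlated between the 2 groups of a comparison. These correlations of differences were 0.497 (SAM68 siRNA), -0.143 (SAM68 plasmid), 0.226 and 0.327 (NORAD siRNA, KO and WT) and 0.519 (KO against WT, control siRNA). They rest on 2 pairs each, too few to decide whether the numbers pair the libraries. With the plasmid numbers crossed, 1 gene was called. With 2 libraries a group, rows near the floor of 3 counts cannot show small changes.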
